A study of Mus musculus with 2 samples.

Results

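The let-7 family is the group of miRNA species that share the let-7 seed, and its guide strands are the 5p arms of the let-7a, let-7b, let-7c, let-7d, let-7e, let-7f, let-7g and let-7i hairpins and of the miR-98 hairpin. These 9 members were taken by name from the 1982 mature miRNAs listed in the count table, and all 9 had at least 1 count among the 117 species counted in either library. The RNA came from extracellular vesicles (EVs) isolated by size exclusion chromatography from about 10 ml of plasma per group. Both groups were wild type C57BL/6 mice, 8 weeks old and fed normal chow. The exercise mice ran on a treadmill for 60 min to exhaustion at speeds that climbed from 10 to 24 m/min, and the sedentary mice did not run. Plasma of 20 mice was pooled in each group, which gave 1 small RNA library of sedentary EVs (sEVs) and 1 of exercise EVs (eEVs). There are no replicates, so every comparison below is between 2 libraries and not between exercised and sedentary mice.

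let-7 was among the earliest miRNAs found, as a regulator of developmental timing in worms, and its sequence is conserved from worms to mammals. A mature miRNA guides Argonaute to mRNAs mainly through its seed, bases 2 to 8 counted from the 5′ end, so members with the same seed are predicted to share many targets. Known let-7 targets include Ras genes, Hmga2, Myc and Lin28. LIN28 proteins bind let-7 precursors and block their maturation. In adult tissues and in blood the family is widely expressed and usually abundant.

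The mature sequences are printed because the members differ by very few bases, and the counts of each member depend on telling those bases apart. All were matched by name in RefSeq (GRCm38.p6), and capitals mark the seed.
mmu-let-7a-5p: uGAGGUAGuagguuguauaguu
mmu-let-7b-5p: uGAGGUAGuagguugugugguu
mmu-let-7c-5p: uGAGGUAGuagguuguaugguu
mmu-let-7d-5p: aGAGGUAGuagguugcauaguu
mmu-let-7e-5p: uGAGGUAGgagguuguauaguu
mmu-let-7f-5p: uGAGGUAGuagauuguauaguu
mmu-let-7g-5p: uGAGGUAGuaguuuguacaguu
mmu-let-7i-5p: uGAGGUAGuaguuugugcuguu
mmu-miR-98-5p: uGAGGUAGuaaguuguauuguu

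Each member is 22 bases long, and the 36 pairs of members differ at between 1 and 6 positions. Against mmu-let-7a-5p, with its base first and positions counted from the 5′ end, mmu-let-7c-5p differs only by A19G, mmu-let-7f-5p only by G12A and mmu-let-7e-5p only by U9G. mmu-let-7b-5p carries both A17G and A19G. let-7a and let-7c therefore share their first 18 bases, and let-7a, let-7b and let-7c share their first 16. The motif GUUGUGU, which has been described in let-7b as a ligand of the RNA sensor TLR7, was found in mmu-let-7b-5p and in no other member. Searched on the RNA strand only, it was present in 2 of the 1679 mouse mature miRNAs with a RefSeq sequence, or 0.119%.

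The 9 members come from 12 hairpins, since let-7a, let-7c and let-7f are each encoded at 2 places, and a count of these 3 members cannot be assigned to either place. Positions are from RefSeq on GRCm38.p6 and overlapping genes from GENCODE M21 on the same build. The count table holds no coordinates. On chromosome 13, Mirlet7a-1 (48538179 to 48538272), Mirlet7f-1 and Mirlet7d lie together in exons of the long noncoding RNA 6720427I07Rik. On chromosome 15, Mirlet7c-2 (85706603 to 85706697) and Mirlet7b (85707319 to 85707403) lie in exons of Lncppara. Mirlet7c-1 lies on chromosome 16 from 77599657 to 77599750 in an intron of Mir99ahg, within 50 kb of Mir99a. Mirlet7a-2 is on chromosome 9 from 41536716 to 41536811, near Mir100 and Mir125b-1, and Mirlet7g is on the same chromosome in an intron of Wdr82. Mirlet7f-2 and Mir98 share an intron of Huwe1 on chromosome X, Mirlet7e lies in an intron of Spaca6 on chromosome 17, and Mirlet7i lies on chromosome 10. The motif GGAG, to which LIN28 is known to bind in let-7 precursors, was present on the RNA strand between the arms in 9 of the 12 hairpins, or 75.0%, and was absent there from Mirlet7c-2, Mirlet7b and Mir98. Among all mouse hairpins with a gap of the same range of lengths, these 12 included, 16 of 62 held it, or 25.8%.

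Depth was 2851 miRNA counts for sEVs and 820 for eEVs, a difference of 3.48 times. The limit for a species with 0 counts was set at 3 counts, which are 0.105% of sEVs and 0.366% of eEVs. Shares of counts are given with 95% Wilson intervals, and ratios of shares, eEVs over sEVs, with exact 95% intervals conditional on the summed count. Except where variation between libraries is stated as assumed, intervals and p-values cover counting error only, because there are no replicates. The reads also carry no molecular identifiers, so some may be copies of the same molecule. In that case the intervals are too narrow and the p-values too small even for counting error of molecules. Both arms had the same counts in both libraries for 22 of the hairpins with a count, and none of these was a let-7 or miR-98 hairpin.

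The family as a whole did not differ detectably in its share of the miRNA counts. In sEVs its members summed to 110 counts or 3.86% (3.21% to 4.63%). In eEVs they summed to 25 counts or 3.05% (2.07% to 4.46%). The ratio of shares was 0.790 (0.490 to 1.23), so a change within that interval was not detectable at this depth, and its direction turned when libraries were scaled by DESeq2's size factors (log2 ratio 0.18 in place of -0.34). An equal share would have given 31.6 counts in eEVs. The sum joins members with ratios above and below 1. Without mmu-let-7c-5p the other 8 members had 98 sEV counts and 12 eEV counts, a ratio of 0.426 (0.213 to 0.778). Without mmu-let-7a-5p the rest had 72 and 21, a ratio of 1.01 (0.592 to 1.67). Leaving out a member whose ratio lies above or below the family's moves the rest the other way by construction. Both pools are therefore given as descriptions, without a test.

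In sEVs the order of the members was led by mmu-let-7a-5p with 38 counts, a share of 1.33% (0.973% to 1.82%). mmu-let-7f-5p followed with 25 counts or 0.877% (0.595% to 1.29%), then mmu-let-7i-5p with 14 and mmu-let-7c-5p with 12. mmu-let-7d-5p had 8 counts, mmu-let-7b-5p 7 and mmu-let-7e-5p 4. mmu-let-7g-5p and mmu-miR-98-5p, the member encoded beside let-7f-2, had 1 count each. None of the neighbours in this order differed beyond counting error, by the exact 95% interval of the higher member's part of the pair. Over all 36 pairs 20 differed, and let-7a was above each member but let-7f. let-7f was above let-7c and each member ranked below it.

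In eEVs the order was led by mmu-let-7c-5p with 13 counts, a share of 1.59% (0.929% to 2.69%). mmu-let-7a-5p was next with 4 counts or 0.488% (0.190% to 1.25%). mmu-let-7b-5p and mmu-let-7f-5p had 3 counts each, and mmu-let-7d-5p and mmu-let-7i-5p had 1 each. mmu-let-7e-5p, mmu-let-7g-5p and mmu-miR-98-5p had 0 of 820 counts. The limit set at 3 counts is a share of 0.366%, and the Wilson interval of 0 counts reaches up to 0.466%. Of the 33 pairs with a count, 8 differed, and all of these were let-7c against another member. For let-7c and let-7a, neighbours in the order, the part of let-7c was 76.5% of their 17 counts, with an interval from 50.1% to 93.2% that only just excludes equality.

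**Figure D1:**
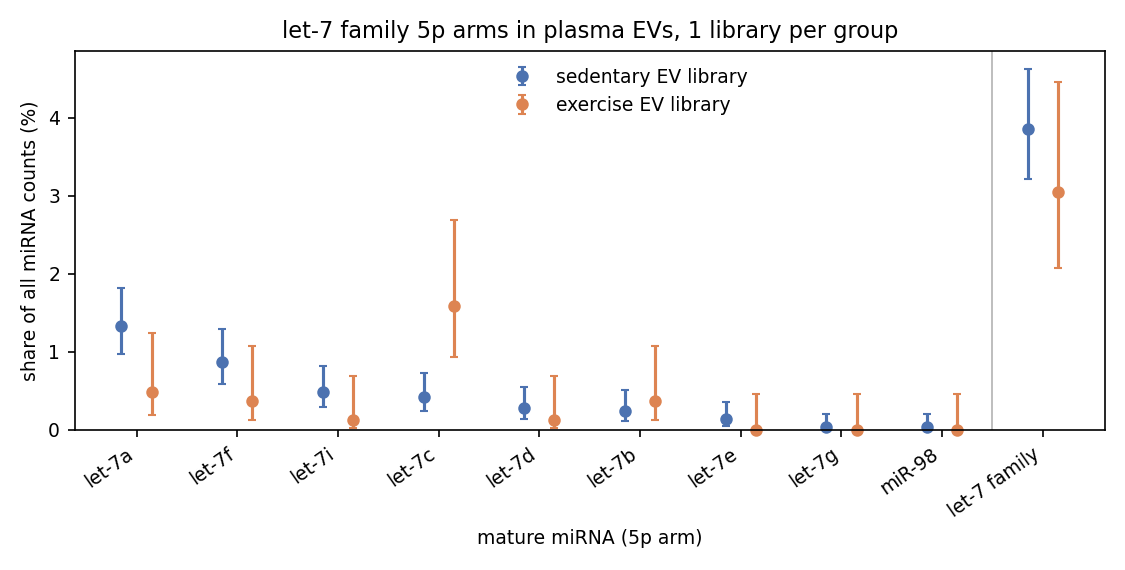
Share of all miRNA counts (%, vertical axis) of each let-7 family 5p arm and of the 9 together, with 95% Wilson intervals, in the sEV library (blue) and the eEV library (orange). let-7a and let-7f lead in sEVs at 1.33% and 0.877%, let-7c leads in eEVs at 1.59%, and the family's intervals overlap.

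The parts that members held of the family's counts are given as a description of these 2 libraries. let-7a and let-7f together made up 57.3% (47.9% to 66.1%) of the family's counts in sEVs and 28.0% (14.3% to 47.6%) in eEVs. let-7c made up 10.9% (6.35% to 18.1%) in sEVs and 52.0% (33.5% to 70.0%) in eEVs. For each count of let-7a there were 0.316 counts of let-7c in sEVs and 3.25 in eEVs, a conditional odds ratio of 9.86 with an exact 95% interval from 2.47 to 49.7. Against let-7f, the same ratio was 0.480 in sEVs and 4.33 in eEVs (odds ratio 8.62, interval 1.89 to 56.1). The ratio of let-7f to let-7a was 0.658 in sEVs and 0.750 in eEVs (odds ratio 1.14, interval 0.153 to 7.36), so the balance of the 2 leading sEV members was not seen to move, within a wide interval. These pairs were chosen after their values were seen and are given as descriptions, without a test.

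**Figure D2:**
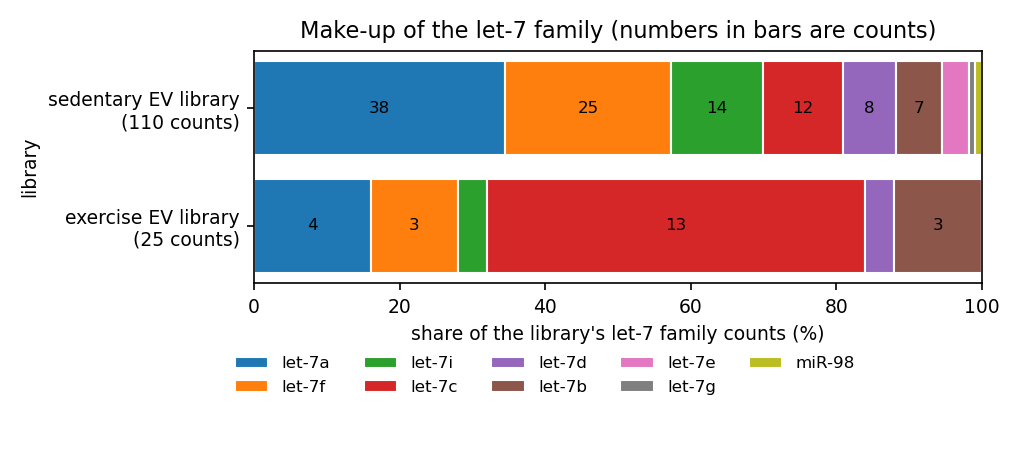
Share of each library's let-7 family counts (%, horizontal axis) held by each member, with counts printed in the larger segments. let-7c takes 13 of the 25 eEV counts and 12 of the 110 sEV counts.

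mmu-let-7c-5p was the member with a higher share in eEVs beyond counting error. It had 12 counts in sEVs, or 0.421% (0.241% to 0.734%), where the 13 counts in eEVs compare with 3.45 at an equal share. The ratio was 3.77 (1.58 to 9.03), and Fisher's exact test, two-sided, of let-7c against all other miRNA counts gave p = 0.00109, or 0.0159 after Benjamini-Hochberg adjustment over the 117 species. The intervals of its shares in the 2 libraries do not overlap. With a biological coefficient of variation of 0.1 between libraries assumed in edgeR's exact test, the adjusted p-value was 0.0633, above the threshold of 0.05. The call was also lost, at 0.260, when all 1915 listed mouse names entered the adjustment.

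let-7a, let-7d, let-7f and let-7i had lower shares in eEVs, each within counting error. The 38 sEV counts of let-7a compare with 4 in eEVs, where an equal share would give 10.9. Its ratio was 0.366 (0.0949 to 1.02), with p = 0.0598 in Fisher's exact test and 0.175 after adjustment. mmu-let-7f-5p, with 25 and 3 counts, had a ratio of 0.417 (0.0806 to 1.37) and an adjusted p-value of 0.422 in the exact test. Added together, a pool chosen after its values were seen and given as a description, let-7a and let-7f had 63 and 7, a ratio of 0.386 (0.149 to 0.844). mmu-let-7i-5p had 14 sEV counts and 1 eEV count, a ratio of 0.248 (0.00587 to 1.63). mmu-let-7d-5p, the member whose first base differs from the others (U1A), had 8 and 1, a ratio of 0.435 (0.00979 to 3.24). The ratios of let-7i and let-7d each rest on 1 eEV count.

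For the remaining members the depth allows little to be said. mmu-let-7b-5p, the member with the GUUGUGU motif, had 7 counts in sEVs (0.246%, 0.119% to 0.506%) and 3 in eEVs (0.366%, 0.125% to 1.07%), a ratio of 1.49 (0.249 to 6.53). mmu-let-7e-5p had 4 counts in sEVs, a share of 0.140%, which lies under the limit of the eEV library, so a fall was not detectable. mmu-let-7g-5p and mmu-miR-98-5p had 1 and 0 counts, and no ratio is given for them.

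**Figure D3:**
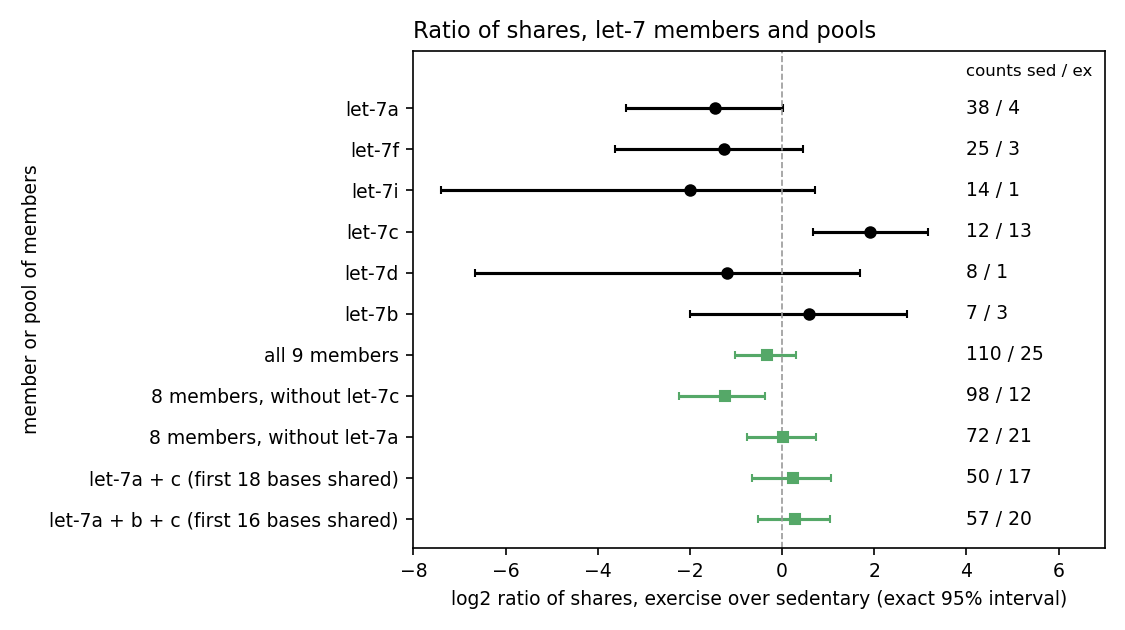
log2 ratio of shares, eEVs over sEVs (horizontal axis), with exact 95% intervals, for the 6 members counted in both libraries (black circles) and for pools of members (green squares), beside their counts in sEVs and eEVs. let-7c lies at 1.91 with its interval above 0, the family at -0.34, the family without let-7c at -1.23, and the pool of let-7a and let-7c at 0.24.

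An adjusted p-value under 0.05 was thus found for 1 of the 9 members, let-7c, in the higher direction. Among all 117 species 23.1% passed the same threshold, 18.8% in the higher direction and 4.27% in the lower, so the count of members is not above that of the table. Before adjustment 1 of the 9 members and 33.3% of all species were under 0.05. Of the 6 members counted in both libraries 2 had a higher and 4 a lower share in eEVs, beside 11 higher and 20 lower (64.5%) among the 31 species counted in both. With 1 count added to every species, the median log2 ratio was -0.51 over the members and 0.66 over all 117 species. A species with 1 count in sEVs and 0 in eEVs also takes the second value, through the added count and the difference in depth, so the medians are not read against each other.

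let-7a, with a ratio below 1, and let-7c, with a ratio above 1, are told apart by 1 base, position 19. Pooled as the group that shares its first 18 bases, they had 50 sEV counts, or 1.75% (1.33% to 2.30%), and 17 in eEVs, or 2.07% (1.30% to 3.29%). The ratio of the pool was 1.18 (0.639 to 2.08), against 0.366 for let-7a and 3.77 for let-7c alone, and its adjusted p-value in Fisher's exact test was 0.822. With let-7b added, as the group that shares 16 bases, the pool had 57 and 20 counts, a ratio of 1.22 (0.694 to 2.06). The table does not give read lengths or mismatches, so whether reads that end before base 19, or a base misread there, moved counts between let-7a and let-7c was not tested. let-7f differs from let-7a at position 12 and from let-7c at positions 12 and 19, and its ratio was 0.417.

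**Figure D4:**
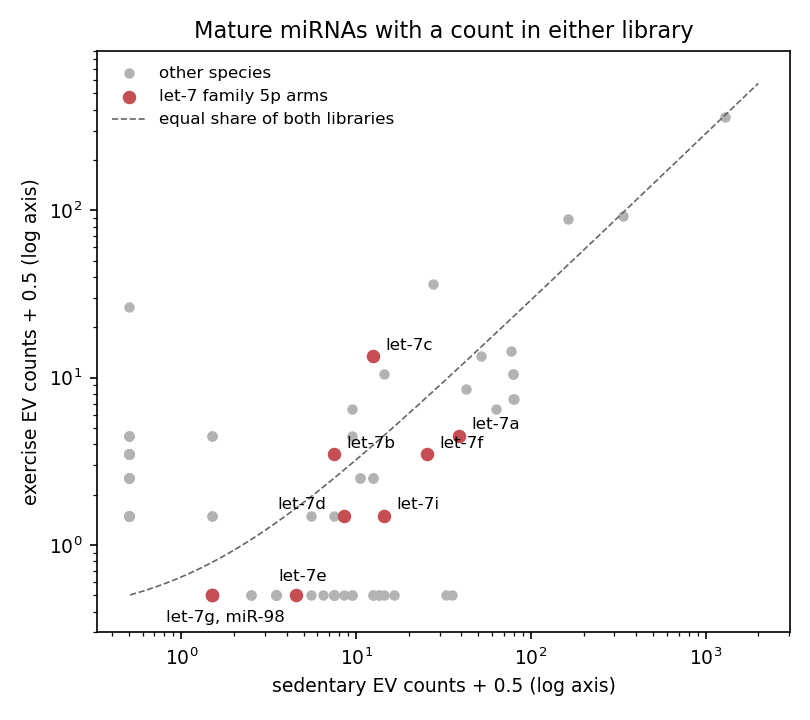
Counts in eEVs against counts in sEVs, each with 0.5 added, on log axes, for the 117 species with a count in either library. Members of the let-7 family are red, and the dashed line marks equal shares. let-7c lies above the line with 13 counts in eEVs, let-7b close to it, and the other 7 members below it, 3 of them at 0 counts in eEVs.

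The 3p arms of the same hairpins, the passenger strands, were less abundant. Of the 12 listed, 6 had a count. In sEVs they summed to 21 counts, 0.737% of the library, and the guide strands outnumbered them 5.24 to 1. The 3p arms of let-7a and let-7c are printed to show which of them can be told apart, in lower case since no part is singled out.
mmu-let-7c-1-3p: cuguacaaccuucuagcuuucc
mmu-let-7a-2-3p: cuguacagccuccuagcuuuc
mmu-let-7a-1-3p: cuauacaaucuacugucuuucc
mmu-let-7c-2-3p: cuauacaaucuacugucuuucc

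mmu-let-7a-1-3p and mmu-let-7c-2-3p are identical over their 22 bases and had the same values, 0 counts in sEVs and 4 in eEVs, so the 2 names cannot be told apart and are read here as 1 signal. Set against 3 counts in sEVs the ratio of this signal was 4.64, and the exact interval of the ratio begins lower, at 2.30. Fisher's exact test gave p = 0.00248 for each name, or 0.0263 after adjustment, in which the same 4 counts entered under both names. This p-value is above that of mmu-let-7c-5p, so this call too was lost when all 1915 listed mouse names entered the adjustment. mmu-let-7c-1-3p had 9 sEV counts and 0 eEV counts, and mmu-let-7a-2-3p had 7 and 0, where equal shares would give 2.59 and 2.01 counts. Their intervals reach up to ratios of 1.76 and 2.41 and include no change. mmu-let-7b-3p had 5 and 1 counts, and mmu-let-7d-3p had 0 and 1. With the identical pair counted once, the arms summed to 6 counts in eEVs, and the ratio of the sums was 0.993 (0.328 to 2.54). The guide strands then outnumbered them 4.17 to 1 in eEVs. Guide and passenger strands together had 131 and 35 counts, each name counted, a ratio of 0.929 (0.621 to 1.36).

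The miR-99, miR-100 and miR-125 arms, some of which are encoded beside let-7 hairpins, had few counts. The arms of miR-99a, miR-99b, miR-100, miR-125a and miR-125b are listed under 11 names, of which 10 had 0 counts in both libraries. mmu-miR-125a-5p, encoded near let-7e, had 0 counts in sEVs and 3 in eEVs, and no ratio is given because neither count exceeds 3. Fisher's exact test gave p = 0.0111, or 0.0482 after adjustment. That p-value is above the one of mmu-let-7c-5p, so the call was lost when all 1915 listed mouse names entered the adjustment. let-7e itself had 4 and 0. Besides the 9 members, mmu-let-7k and mmu-miR-1961 carry the same seed in RefSeq, and both had 0 counts.

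Grouped by seed, the let-7 family was the third most abundant of the 86 seed groups in sEVs and the fifth in eEVs. A sequence was found for 99 of the 117 species. The groups above it in both libraries were each 1 species, mmu-miR-23a-3p at 45.2% and 44.1% and mmu-miR-6240 at 11.7% and 11.2%. In eEVs mmu-miR-451a and mmu-miR-3470b, at 4.39% and 3.17%, also stood above its 3.05%. Species without a sequence in the table used were not ranked, among them mmu-miR-466i-5p, which had more counts than the family in both libraries.

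Marker miRNAs of red blood cells, white blood cells and liver differed in share between the libraries. The 6 red cell miRNAs of the marker list summed to 34 sEV counts and 36 eEV counts, a ratio of 3.68 (2.24 to 6.06), with mmu-miR-451a holding 27 and 36 of these, mmu-miR-16-5p 7 and 0, and both arms of miR-144 and the 2 miR-486 5p arms at 0. The ratio of the red cell list thus rests on miR-451a alone. The 6 white blood cell miRNAs in the list had 229 and 28 counts, a ratio of 0.425 (0.276 to 0.631). The 5 platelet and endothelial miRNAs had 51 and 16, a ratio of 1.09 (0.581 to 1.94), a sum over members that went opposite ways. Of these, mmu-miR-191-5p (14 and 10) and mmu-miR-126a-5p (9 and 6) had higher shares in eEVs. mmu-miR-126a-3p (14 and 0), mmu-miR-21a-5p (9 and 0) and mmu-miR-223-3p (5 and 0) had no eEV count. The 3 liver miRNAs had 20 and 0, a ratio whose interval reaches up to 0.704, and the 6 striated muscle miRNAs 0 in both. Beside these stand the ratios of the family, 0.790, and of let-7c, 3.77. The family without let-7c had 0.426 and without let-7a 1.01, both given as descriptions. The part of any of these cell sources in the let-7 counts was not tested, and with pooled plasma less RNA per vesicle and fewer vesicles of a source cannot be told apart.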

How the data were processed

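Small RNA libraries (TruSeq, single end, 50 nt) of plasma EVs from 1 sedentary and 1 exercise pool were sequenced by the authors, who deposited raw counts per mature miRNA and a normalized table of fractions of a library's miRNA counts. The aligner, the miRNA reference and the genome build are not given in the sources used here. The deposited fractions differed from count over total by at most 4.85e-10. Libraries are rows of both tables, and the 67 names outside the mouse prefix were not used.

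Shares, Wilson intervals, exact conditional intervals of ratios and two-sided Fisher's exact tests were computed from the counts, with Benjamini-Hochberg adjustment over the 117 species counted in either library and a threshold of 0.05. The pooled family got no p-value. edgeR's quasi-likelihood model needs replicates and could not be fitted. A ratio against 0 counts was set against 3 counts and left out for species with at most 3 counts in each library. Depths were 2851 and 820 counts. The alternatives covered scaling, added counts, the members pooled, filters and assumed variation. Named species were the members, species with their seed, their 3p arms, cluster partners, marker lists and the 3 species with 10 or more counts whose ratio was nearest to the family's. Others are named where a rank or a marker list turned on them. Members, lists and tests were chosen with earlier results of these data known. The test procedure was tried on simulated libraries that held counting error only. False calls from variation between libraries or from copied reads were not tested. Scaling factors and the test with assumed variation came from edgeR 4.0.16 and DESeq2 1.42.0 in R 4.3.3. Intervals and tests used scipy 1.17.1 and numpy 2.4.6, tables pandas 2.3.3 and plots matplotlib 3.10.9, under Python 3.11.15.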

Additional observations from a re-analysis of the deposited data

How the results depend on the processing

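The log2 ratio of the pooled family, -0.34, kept its direction and stayed within its interval under 16 of 20 alternatives. It changed sign with DESeq2's size factors (0.18), without let-7a (0.020) and when limited to members with 5 or more counts in each library (1.91), where only let-7c was left, and it was -1.23 without let-7c. TMM factors moved every log2 ratio by 0.17 and DESeq2's size factors by 0.52, while none of the 6 members counted in both libraries changed direction under either. let-7a changed direction only when pooled over its first 18 or 16 bases (0.24 and 0.29, adjusted p = 0.822 at 18 bases). let-7c was within its interval under 8 of 10 alternatives and fell to the same 2 values when pooled. At a minimum of 5 counts 1 member was detected in eEVs instead of 6. The number of members called was 1 under 4 of 9 alternatives and 0 with adjustment over every listed name, with let-7a and let-7c pooled over 18 bases and with an assumed coefficient of variation of 0.1, 0.2 or 0.4. Over all species, the 27 calls became 13 of 48 with at least 5 counts, 3 of 1915 over every listed name, and 5, 4 and 1 at those coefficients. Adjusted p-values of let-7c ranged from 0.00651 to 0.822 and those of let-7a from 0.141 to 1, in Fisher's exact test or edgeR's exact test. No paired analysis was possible because each group has 1 library. The eEV depth of 820 counts limits every member, and let-7c was the one with 5 or more eEV counts.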

Other observations

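Of the 28 species outside the seed family with 10 or more counts in the libraries together, those whose ratio lay nearest to that of the pooled family were both arms of mmu-miR-345, each with the same 12 sEV counts and 2 eEV counts, and mmu-miR-3535, with 42 and 8. With 1 count added to each, their log2 ratios were -0.45, -0.45 and -0.59, beside -0.43 for the family's summed count. This likeness rests on 1 ratio between 2 libraries.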
